A study of Homo sapiens with 27 samples.

Results

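The collagen genes were followed across 5 states of IMR90 cells, an established line of diploid fibroblasts from human fetal lung. The members are all protein-coding genes whose symbol is COL, a number, A and a number, and 44 of the 19310 protein-coding genes counted met that rule. RNA-seq measured their mRNA in 13 libraries, and ribosome profiling (Ribo-seq), which sequences the stretches of mRNA that ribosomes shield from RNase, measured their footprints in 14. The cycling cells (2 RNA-seq and 3 Ribo-seq libraries) were harvested at 40 to 60% confluency, and the quiescent cells (3 and 3) had stopped dividing by contact inhibition. Irradiated senescent cells (3 and 3) received 15 Gy and were harvested after 10 days. Etoposide senescent cells (3 and 3) received 3 treatments with 50 µM etoposide, a topoisomerase II poison, over 10 days. The thapsigargin cells (2 and 2) were cycling cells at 40 to 60% confluency given 25 nM thapsigargin for 3 h, which blocks the calcium pump of the endoplasmic reticulum and disturbs protein folding there. All 5 states come from 1 cell line, and nothing in the labels says that replicates were separate cultures, so p-values measure only the spread between libraries, which may be technical.

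Collagens are secreted proteins in which 3 chains wind into a triple helix. Each chain is made on ribosomes at the endoplasmic reticulum, hydroxylated on proline and lysine, held by the chaperone HSP47 while it folds, and exported before enzymes outside the cell trim and crosslink it. Fibrillar collagens such as type I (chains COL1A1 and COL1A2) and type III (COL3A1) form the fibres of connective tissue, type IV forms the sheets of basement membranes, and type VI forms beaded filaments close to cells. Fibroblasts are the main source of fibrillar collagen in the lung.

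Libraries held 20635503 to 57119841 gene counts in RNA-seq and 1936976 to 19996104 in Ribo-seq, and the shallowest were the thapsigargin Ribo-seq libraries at 1936976 and 2044900. Cycling replicate 2 was the shallowest RNA-seq library. It had 33.4% of reads mapping to several places and 10.7% of gene counts on the opposite strand, the highest strand share of all libraries. Cycling RNA-seq replicate 1 had 13.2% and 5.88%. Every mRNA comparison with cycling cells rests on these 2 libraries. All 9 fibroblast markers checked (VIM, PDGFRA, PDGFRB, THY1, DCN, LUM, S100A4, FN1 and SPARC) had counts in every state and assay. Markers of other cell types stayed low, with summed levels of at most 1.13 CPM for 6 epithelial genes, 2.64 CPM for 4 endothelial genes and 2.94 CPM for 4 blood cell genes (CPM, gene counts per 1000000 counts of the library, after TMM scaling). The thapsigargin libraries stood apart in ways other than treatment: their RNA-seq had 1.35 to 1.40% unmapped reads against 27.8 to 40.6% in other states, their Ribo-seq had 65.2 to 66.9% reads mapping to several places against 19.8 to 31.9%, their Ribo-seq counts use another gene list than the other Ribo-seq libraries, and the labels describe their medium without antibiotics. The labels also tag all 4 thapsigargin libraries as ribosome-protected, so their assay was taken from the titles. Treatment and preparation cannot be told apart in any comparison with thapsigargin. A list of 4 smooth muscle and myofibroblast genes (ACTA2, CNN1, MYH11 and DES) was summed in each library. In mRNA the sums were 387 to 417 CPM after thapsigargin, 739 to 885 in cycling and 1051 to 1238 after irradiation. They were 715 to 1236 after etoposide and 989 to 1821 in quiescence. In footprints the sums were 1605 to 1735, 1957 to 2193, 2948 to 3362, 1687 to 2971 and 2623 to 5233 CPM in the same order, so the irradiated libraries lay above cycling in both assays, where the thapsigargin libraries lay below. ACTA2 made up most of these sums, with a mean of 695 CPM in cycling mRNA and 2022 CPM in cycling footprints. The other genes of the list did not all move with it. MYH11 mRNA was 3.70 ± 1.52 CPM in cycling (n = 2) and 39.4 ± 7.8 after irradiation (n = 3). Mean DES mRNA was 3.34 CPM in cycling, 6.94 after irradiation and 0.900 after etoposide. Mean CNN1 footprints were 75.2 CPM in cycling and 76.0 after thapsigargin. The part of these genes in the collagen values was not tested. Quiescent replicate 1 was the lowest of its group for most abundant collagens in both assays, and counts of members called against quiescence are given with and without it.

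The 44 genes took 3.24% ± 0.12 (SD, n = 3) of all footprint counts in cycling cells. They took 2.32% ± 0.036 in etoposide-treated and 1.45% ± 0.078 in irradiated cells (n = 3 each), and 0.440% and 0.438% in the thapsigargin libraries. The quiescent libraries spread widely, at 1.36%, 2.86% and 3.86%. The shares of mRNA counts were smaller. Cycling libraries had 0.784% and 1.26%, quiescent libraries 0.500%, 1.12% and 1.13%, irradiated libraries 0.542% ± 0.028, etoposide libraries 0.793% ± 0.091, and thapsigargin libraries 0.449% and 0.643%. In footprints, the 3 irradiated, the 3 etoposide and the thapsigargin libraries occupied separate ranges, all below cycling. In bulk libraries, fewer cells with an mRNA and less of it per cell cannot be told apart.

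**Figure D1:**
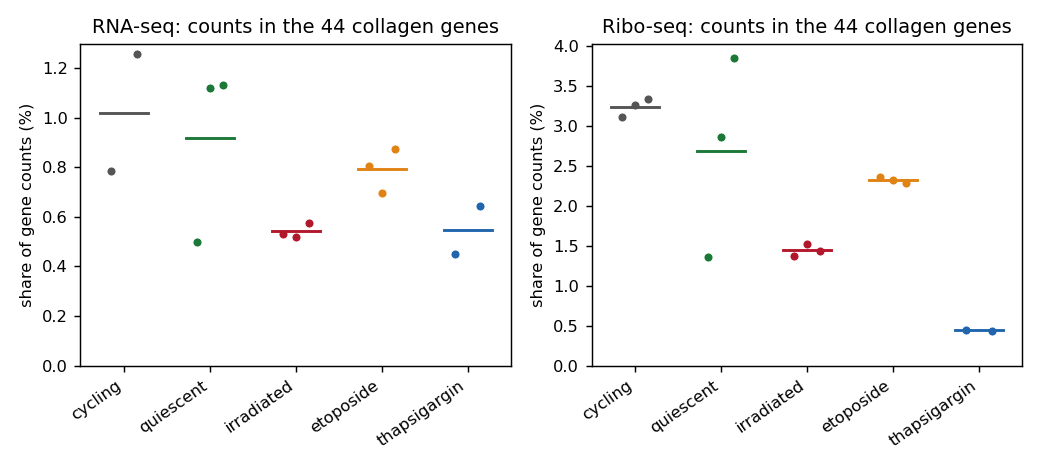
Share of gene counts (%, y axis) that fell in the 44 collagen genes, by state (x axis), in RNA-seq (left) and Ribo-seq (right). Each point is 1 library and each line the group mean; the footprint share falls from 3.24% in cycling to 1.45% in irradiated cells and lies at 0.44% after thapsigargin.

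A filter on low counts left 33 members to test in RNA-seq and 24 in Ribo-seq. The other 11 and 20 never had a state mean above 0.346 CPM in RNA-seq and 3.01 CPM in Ribo-seq, among them COL2A1 of cartilage and COL4A3 and COL4A4 of kidney basement membrane. Every count below is of genes called at an adjusted p under 0.05 by edgeR's quasi-likelihood test (Benjamini-Hochberg over all genes tested). Percentages beside them are of all tested genes called in the same comparison. In mRNA against cycling cells, 3 members were called higher and 1 lower in quiescence (5.18% and 10.4% of all genes, 15.6% either way). After irradiation 3 were higher and 10 lower (16.2% and 18.8%, 34.9% either way), after etoposide 7 were higher and 10 lower (16.8% and 17.8%, 34.6% either way), and after thapsigargin none were higher and 13 lower (11.7% and 12.8%, 24.5% either way). In footprints, 2 members were called higher and none lower in quiescence (8.15% and 14.2%, 22.4% either way). After irradiation 2 were higher and 13 lower (19% and 21.6%, 40.5% either way), after etoposide 4 were higher and 5 lower (16.8% and 17.1%, 33.9% either way), and after thapsigargin none were higher and 18 lower (21.1% and 23.6%, 44.6% either way). The median log2 change of the tested members was -0.50 in mRNA and -1.01 in footprints after irradiation, 0.28 and 0.15 after etoposide, and -1.02 and -2.57 after thapsigargin (-0.85 and -2.57 with members at no count set at their bound), while the medians of all genes in these comparisons lay between -0.08 and 0.03. No member was called higher after thapsigargin; at an unadjusted p under 0.05 there was 1 in mRNA and 0 in footprints, and DESeq2 called 0 in each. Without cycling RNA-seq replicate 2, which held more COL1A1, COL1A2 and COL3A1 mRNA than replicate 1, the mRNA calls dropped to 7 after irradiation, 8 after etoposide and 6 after thapsigargin, with 22.7%, 21.4% and 11.7% of all genes called either way.

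**Figure D2:**
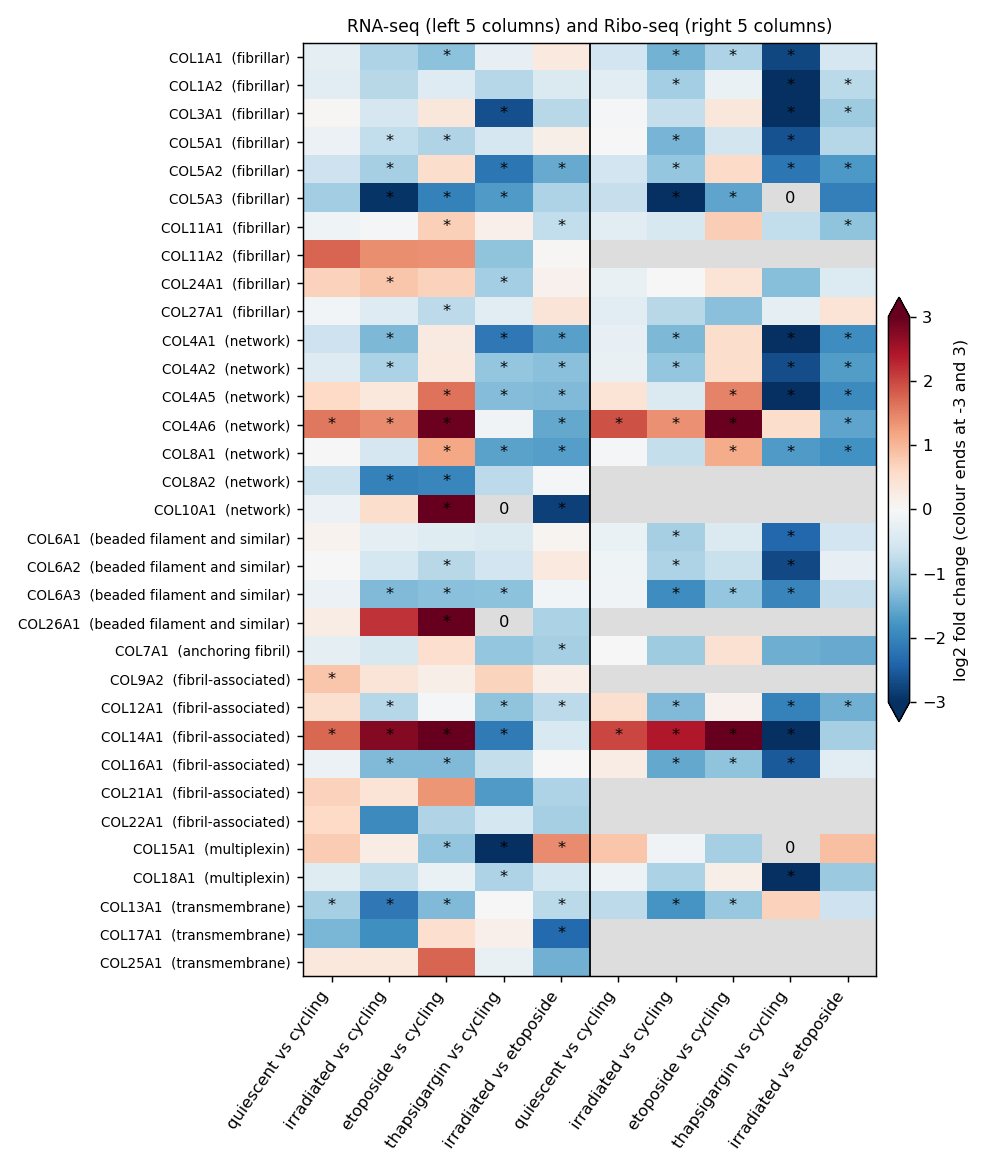
Log2 fold change (colour, ends at -3 and 3) of the 33 collagen genes tested in RNA-seq (rows, with their class), in 5 comparisons (columns) for RNA-seq (left) and Ribo-seq (right). An asterisk marks an adjusted p under 0.05, grey a gene not tested, and 0 a gene without a count in the thapsigargin libraries. The tested network collagens other than COL8A2 show opposite colours in etoposide against cycling and in irradiated against etoposide. The etoposide libraries enter these comparisons with opposite signs.

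Type I collagen is the bulk product of fibroblasts, and its footprints fell in irradiated cells while its mRNA did not pass the test. Footprints of COL1A1 (ENSG00000108821, chr17:50184101-50201631 in GRCh38.p14) were 12636, 11428 and 12768 CPM in cycling, 3804, 8922 and 12030 in quiescent libraries, 4250, 4912 and 4683 after irradiation, 6528, 6985 and 5995 after etoposide, and 1793 and 1911 after thapsigargin. All irradiated and etoposide libraries lay below all cycling libraries. The log2 changes against cycling were -1.41 ± 0.27 (SE, adjusted p = 0.00108) after irradiation and -0.92 ± 0.27 (adjusted p = 0.0174) after etoposide, the second lost without etoposide replicate 1 or 3. COL1A1 mRNA was 922 and 2255 CPM in the cycling libraries, 812, 669 and 1023 CPM in the irradiated and 495, 563 and 980 CPM in the etoposide-treated ones. The highest irradiated and etoposide libraries were above the lower cycling library. The etoposide change of -1.22 ± 0.45 passed (adjusted p = 0.0482) but kept its call in 4 of 11 alternatives and went to -0.44 without cycling RNA-seq replicate 2, and the irradiation change of -0.93 ± 0.45 did not pass (adjusted p = 0.126; 0.0384 with the replicate block).

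COL1A2 (ENSG00000164692, chr7:94394895-94431227), the second chain of type I collagen, fell in footprints in irradiated cells. Its footprints were 8660, 9891 and 10462 CPM in cycling, 3676, 8278 and 10924 in quiescent libraries, 4499, 5051 and 4808 after irradiation, and 7841, 8671 and 8745 after etoposide. The irradiated libraries did not overlap the cycling ones, whereas the etoposide libraries did. The log2 changes were -1.01 ± 0.26 (adjusted p = 0.00651) and -0.20 ± 0.26 (adjusted p = 0.588). Its mRNA was 2008 and 3624 CPM in cycling, 1558, 1510 and 1715 in irradiated, and 2016, 1916 and 2551 in etoposide-treated libraries, so the irradiated libraries lay below both cycling ones in mRNA too. The mRNA changes of -0.82 ± 0.31 after irradiation (adjusted p = 0.0577) and -0.38 ± 0.32 after etoposide (adjusted p = 0.375) did not pass. The irradiation change did pass with DESeq2 (adjusted p = 0.0279), with the replicate block (0.0212), with only the groups compared (0.0177) and without cycling RNA-seq replicate 1 (0.0308).

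COL3A1 (ENSG00000168542, chr2:188974373-189012746), the chain of type III collagen, did not pass the test in either senescent state against cycling cells. Its footprints were 1631, 2219 and 2123 CPM in cycling, 1139, 1120 and 1365 in irradiated, and 2594, 2399 and 2594 in etoposide-treated libraries. Irradiated libraries were the lowest and etoposide libraries the highest, and the difference between the senescent states of -1.07 ± 0.29 passed (adjusted p = 0.0183), although it kept its call in 9 of 12 alternatives, not without irradiated replicate 1 or 2. In mRNA COL3A1 was 1038 and 1629 CPM in cycling, 865, 902 and 1067 in irradiated, and 1902, 1389 and 1776 in etoposide-treated libraries. Some alternatives did call COL3A1 against cycling. Its fall in footprints after irradiation passed with the replicate block (adjusted p = 0.0452) and with only the groups compared (8.1e-05). With only the groups compared, the mRNA fall after irradiation (0.0340) and the footprint rise after etoposide (0.0226) passed too.

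The type V chains, which set the width of collagen fibrils, were all lower after irradiation in both assays. COL5A3, a minor chain, was 6.31 and 6.85 CPM in cycling mRNA, 0.758, 1.06 and 0.747 in irradiated, and 1.61, 1.36 and 1.89 in etoposide-treated libraries. No senescent library reached a cycling one, and the log2 changes were -2.94 ± 0.43 (adjusted p = 0.000143) and -2.02 ± 0.40 (adjusted p = 0.00152). Its footprints, 5.86, 5.58 and 8.47 CPM in cycling and 0.355, 0.760 and 0.580 in irradiated libraries, fell by 3.64 ± 0.78 on the log2 scale (adjusted p = 0.00251); the 3 irradiated libraries held 6 counts in all. COL5A2, by contrast, was 446 and 548 CPM in cycling mRNA, 227, 270 and 257 in irradiated, and 769, 706 and 669 in etoposide-treated libraries. The senescent states lay on opposite sides of cycling, with a fall after irradiation of -0.98 ± 0.29 (adjusted p = 0.0162) and a change after etoposide of 0.52 ± 0.29 (adjusted p = 0.186). Its footprints followed the same order, at 595 ± 65 CPM in cycling, 266 ± 23 in irradiated and 879 ± 20 in etoposide-treated cells (n = 3 each). COL5A1 was lower after irradiation in both assays, at -0.74 ± 0.23 in mRNA (adjusted p = 0.0213) and -1.40 ± 0.35 in footprints (adjusted p = 0.00583). The mRNA call held in 8 of 11 alternatives, not without irradiated replicate 1 or 2 nor without cycling RNA-seq replicate 2, where the change was -0.49 (adjusted p = 0.231). After etoposide COL5A1 mRNA was also lower, at -0.91 ± 0.23 (adjusted p = 0.00714), a call lost without cycling RNA-seq replicate 2 (adjusted p = 0.108), and its footprints did not pass (-0.55 ± 0.34, adjusted p = 0.232).

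Of the fibril-associated collagens, which sit on the surface of fibrils, COL14A1 rose in every growth-arrested state. Its mRNA was 13.4 and 18.8 CPM in cycling, 33.8, 63.3 and 63.1 in quiescent libraries, 107, 97.6 and 118 after irradiation, and 168, 119 and 156 after etoposide. No arrested library overlapped the cycling ones, and the order from quiescent to etoposide held for the means. The log2 changes were 1.73 ± 0.26 (adjusted p = 0.00111), 2.74 ± 0.27 (adjusted p = 5.9e-06) and 3.20 ± 0.28 (adjusted p = 1.4e-06). In footprints it was 20.1, 28.4 and 19.7 CPM in cycling, 38.1, 99.7 and 137 in quiescent libraries, 120, 121 and 121 after irradiation, and 291, 191 and 238 after etoposide. These calls held in every alternative run. The irradiated state was higher than quiescence in mRNA (1.01 ± 0.22, adjusted p = 0.00554) and did not pass in footprints (0.40 ± 0.34, adjusted p = 0.490), and irradiated and etoposide-treated cells did not pass against each other in mRNA (-0.46 ± 0.21, adjusted p = 0.145).

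COL16A1 and COL12A1, of the same class, were lower than in cycling cells after irradiation, and COL16A1 after etoposide too. The COL12A1 mRNA call after irradiation held in 6 of 11 alternatives. COL16A1 was 66.7 and 80.3 CPM in cycling mRNA, 27.9, 33.9 and 26.4 in irradiated, and 32.5, 25.9 and 30.1 in etoposide-treated libraries, against 42.7, 81.5 and 71.0 in quiescent ones. Both senescent states were below cycling without overlap, at -1.32 ± 0.22 each (adjusted p = 0.000474 after irradiation and 0.000477 after etoposide). Its footprints fell by 1.54 ± 0.36 (adjusted p = 0.00380) and 1.20 ± 0.34 (adjusted p = 0.0148). Of the arrested states, COL12A1 passed against cycling after irradiation: its footprints were 862, 1094 and 883 CPM in cycling, 636, 1507 and 1829 in quiescent libraries, 365, 450 and 328 after irradiation, and 1320, 921 and 852 after etoposide. The irradiated libraries stood below all others of these states, and the difference from etoposide was -1.44 ± 0.29 (adjusted p = 0.00359). In mRNA that difference was -0.79 ± 0.25 (adjusted p = 0.0377) and held in 6 of 12 alternatives.

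The network collagens differed between the senescent states. COL4A1 and COL4A2 are the ubiquitous chains of basement membrane type IV collagen, and in the RefSeq table (GRCh38.p14) their genes start 126 bases apart on opposite strands of chromosome 13. COL4A5 and COL4A6 form a like pair on chromosome X with 379 bases between their nearest listed starts. Promoter windows were listed for 32 of the 44 members. The interval between the COL4A1 and COL4A2 starts is shown because these neighbours moved together in the comparisons below. The bases before COL4A5 are shown because it rose with its own neighbour after etoposide. Against cycling, COL4A6 alone was called higher in quiescence and after irradiation, and COL4A5 alone was called lower after thapsigargin. Capitals mark CCAAT and GGGCGG on either strand. TATAAA was searched too and is in neither stretch.
COL4A1-COL4A2 interval, chr13:110307158-110307283, plus strand: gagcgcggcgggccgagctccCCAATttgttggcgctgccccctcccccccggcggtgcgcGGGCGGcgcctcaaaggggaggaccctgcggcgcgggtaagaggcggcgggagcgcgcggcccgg
COL4A5 upstream, chrX:108439588-108439837, plus strand: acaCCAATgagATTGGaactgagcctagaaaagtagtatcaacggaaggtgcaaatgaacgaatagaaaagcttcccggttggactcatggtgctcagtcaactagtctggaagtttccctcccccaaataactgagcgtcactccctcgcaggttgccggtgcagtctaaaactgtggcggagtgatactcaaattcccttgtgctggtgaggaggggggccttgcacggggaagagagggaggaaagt
The COL4A1-COL4A2 interval holds 1 CCAAT and 1 GGGCGG and the COL4A5 stretch 2 CCAAT. These letters are common: in the 250 bases before the start, 32% of the 35097 promoter windows of all genes hold CCAAT, 42.6% GGGCGG and 10.7% TATAAA, against 27.3%, 54.5% and 18.2% of the 44 windows of members. A match describes the letters, not a bound site.

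COL4A1 mRNA (ENSG00000187498, chr13:110148963-110307157) was 466 and 592 CPM in cycling, 133, 415 and 492 in quiescent libraries, 185, 216 and 218 after irradiation, and 661, 653 and 611 after etoposide. The irradiated libraries lay below and the etoposide libraries above both cycling libraries. Against etoposide, irradiated cells were lower, at -1.64 ± 0.32 in mRNA (adjusted p = 0.00286) and -1.87 ± 0.44 in footprints (adjusted p = 0.00800). COL4A2 (ENSG00000134871, chr13:110307284-110513209), its partner chain, was 262 and 366 CPM in cycling, 150, 176 and 161 in irradiated, and 351, 382 and 419 in etoposide-treated mRNA libraries, and differed by -1.24 ± 0.28 (adjusted p = 0.00662). Its footprints were 373, 390 and 427 CPM in cycling, 149, 206 and 180 in irradiated, and 607, 604 and 496 in etoposide-treated libraries. Against cycling, both chains fell after irradiation in both assays, but the COL4A2 calls held in 6 of 11 mRNA and 5 of 12 footprint alternatives and the COL4A1 calls in 10 of 11 and 7 of 12.

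COL4A5 and COL4A6, chains of more restricted basement membranes, rose after etoposide. COL4A6 mRNA was 1.42 and 1.92 CPM in cycling, 3.03, 4.27 and 7.58 in quiescent libraries, 4.02, 4.26 and 4.91 after irradiation, and 15.9, 10.2 and 12.1 after etoposide. All arrested libraries exceeded cycling, by 1.58 ± 0.36 in quiescence (adjusted p = 0.00999), 1.41 ± 0.36 after irradiation (adjusted p = 0.00817) and 2.94 ± 0.36 after etoposide (adjusted p = 3.8e-05), and its footprints passed in the same 3 states, after irradiation in 5 of 12 alternatives. The mRNA calls in quiescence and after irradiation were lost without cycling RNA-seq replicate 1 (adjusted p = 0.132 and 0.103). COL4A5 was 14.4 and 21.5 CPM in cycling, 21.9, 21.1 and 24.0 in irradiated, and 73.6, 43.2 and 50.3 in etoposide-treated mRNA libraries. Its rise after etoposide was 1.64 ± 0.30 in mRNA (adjusted p = 0.00101) and 1.49 ± 0.33 in footprints (adjusted p = 0.00329). COL8A1, which forms hexagonal lattices under endothelium, was 96.5 and 106 CPM in cycling, 67.4, 75.5 and 71.8 in irradiated, and 232, 230 and 216 in etoposide-treated mRNA libraries. Etoposide libraries were again the highest, 1.16 ± 0.34 above cycling (adjusted p = 0.0186), a call lost without either cycling library. Its relative COL8A2 was 1.61 and 1.92 CPM in cycling and at most 0.629 CPM in any senescent mRNA library, with log2 changes of -2.03 ± 0.41 after irradiation (adjusted p = 0.00191) and -1.97 ± 0.40 after etoposide (adjusted p = 0.00197).

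Set directly against each other, irradiated cells were lower than etoposide-treated cells for 12 members and higher for 1 in mRNA (12.9% and 9.67% of all genes, 22.6% either way), and lower for 10 and higher for none in footprints (13.7% and 8.82%, 22.5% either way). In footprints, no member was higher at an unadjusted p under 0.05 and none by DESeq2. Of the 24 members tested in both assays, 8 were lower in irradiated cells in both: COL4A1, COL4A2, COL4A5, COL4A6, COL8A1, COL5A2, COL11A1 and COL12A1. The share of all genes lower in both assays is not given here, so these 8 have no background beside them. The network class supplied 6 of 7 tested members lower in mRNA and 5 of 5 in footprints, with class medians of -1.53 and -1.81. Of the 6 in mRNA, COL10A1 had no library above 0.561 CPM and kept its call in 2 of 9 alternatives. The 1 member higher in irradiated cells was COL15A1 (mRNA 1.41 ± 0.32, adjusted p = 0.00669), whose product carries an antiangiogenic fragment. Its mRNA was 33.4 and 40.8 CPM in cycling, 43.4, 41.2 and 45.1 in irradiated, and 20.5, 10.4 and 17.8 in etoposide-treated libraries. In footprints COL15A1 differed by 0.89 ± 0.42 and did not pass (adjusted p = 0.159).

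Other members had low levels or smaller differences. COL11A1, a minor fibrillar chain, was 11.5 and 12.3 CPM in cycling, 11.9, 11.1 and 11.8 in irradiated, and 18.5, 23.9 and 16.1 in etoposide-treated mRNA libraries, where all etoposide libraries were above the others. It rose after etoposide by 0.72 ± 0.22 (adjusted p = 0.0250) in 8 of 11 alternatives. COL24A1, a fibrillar collagen with short breaks in its helix, was 5.66 and 6.12 CPM in cycling and 11.03, 9.54 and 10.9 in irradiated mRNA libraries, and rose by 0.84 ± 0.26 (adjusted p = 0.0254) in 7 of 11 alternatives, not without either cycling library (adjusted p = 0.156 and 0.0930). COL27A1 was lower after etoposide by 0.78 ± 0.23 (adjusted p = 0.0178) in 8 of 11 alternatives. COL7A1, the anchoring fibril collagen of skin, was 6.44, 8.76 and 7.51 CPM in irradiated and 19.2, 10.1 and 15.9 in etoposide-treated mRNA libraries and passed between them in 6 of 12 alternatives. COL10A1, COL17A1 and COL26A1 were called in some etoposide comparisons with no library above 0.594 CPM. COL11A2, COL21A1, COL22A1 and COL25A1 were tested in mRNA only and not called in any comparison. COL19A1, COL20A1, COL23A1, COL28A1, COL2A1, COL4A3, COL4A4, COL6A5, COL6A6, COL9A1 and COL9A3 were not tested in either assay.

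**Figure D3:**
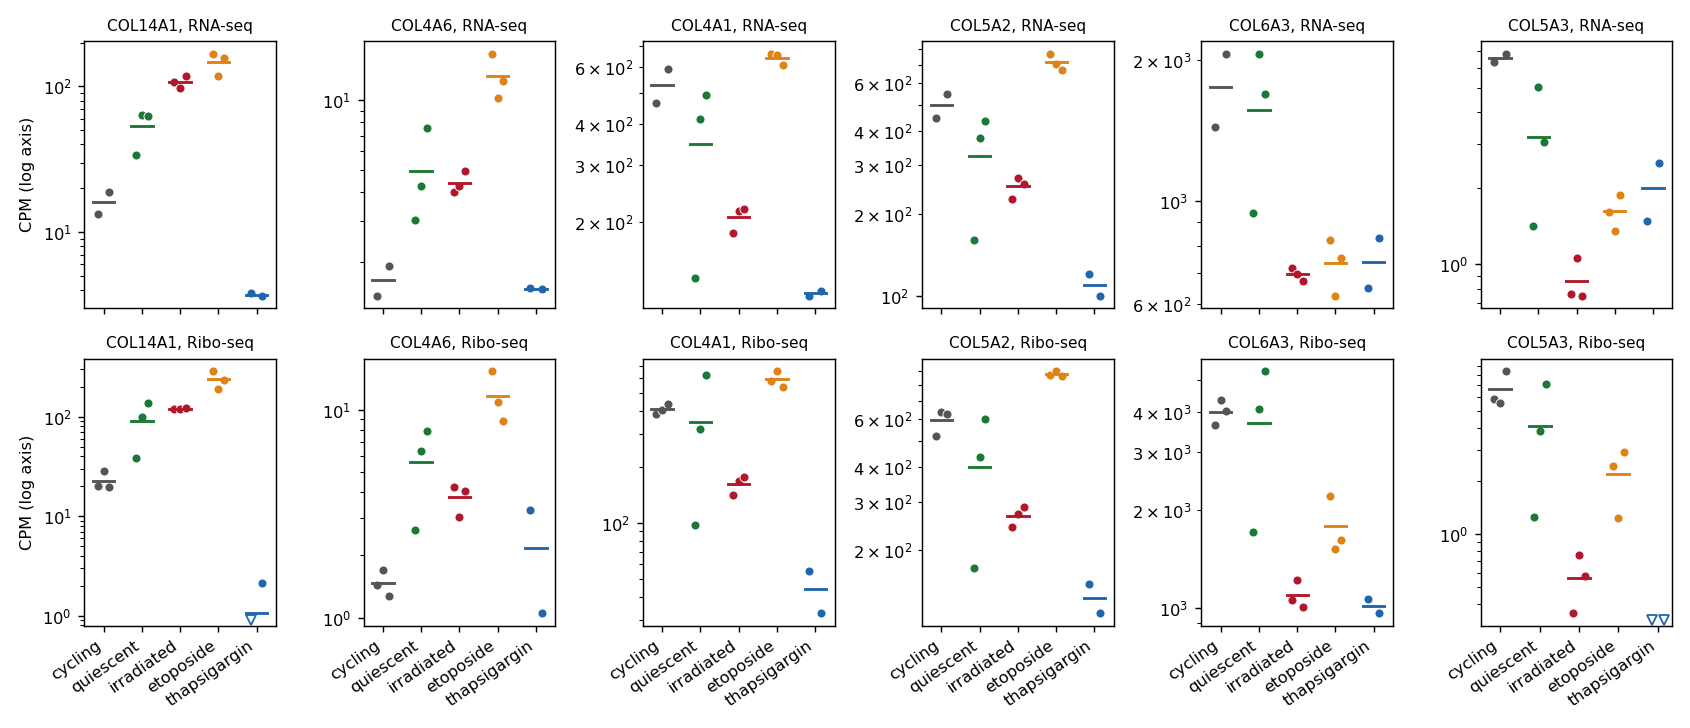
Level (CPM, log axis, a separate range for each panel) of 6 collagen genes by state in RNA-seq (top) and Ribo-seq (bottom). Points are libraries, lines group means and open triangles libraries with no count; COL4A1 and COL5A2 are low in irradiated and high in etoposide-treated cells, whereas COL14A1 is high in both and COL6A3 and COL5A3 are low in both.

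Type VI collagen, which links cells to the matrix, had its large chain, COL6A3, lower in both senescent states. COL6A3 mRNA was 1437 and 2061 CPM in cycling, 941, 2054 and 1686 in quiescent libraries, 717, 697 and 674 after irradiation, and 824, 625 and 753 after etoposide. Every senescent library was below every cycling and quiescent one. The log2 changes were -1.33 ± 0.25 (adjusted p = 0.00118) and -1.25 ± 0.25 (adjusted p = 0.00184) in mRNA, and -1.87 ± 0.29 (adjusted p = 0.000226) and -1.17 ± 0.29 (adjusted p = 0.00622) in footprints, and these held in every alternative. COL6A1 and COL6A2, the short chains, fell after irradiation in footprints by 1.00 ± 0.29 (adjusted p = 0.0147) and 0.92 ± 0.31 (adjusted p = 0.0313), from 1203, 1143 and 1233 to 593, 704 and 495 CPM and from 1580, 1203 and 1307 to 700.2, 856 and 613 CPM. These calls held in 11 of 12 alternatives for COL6A1 and in 7 of 12 for COL6A2 (highest adjusted p = 0.110). In mRNA, COL6A1 was 299 and 484 CPM in cycling, 345, 353 and 261 in irradiated, and 218, 271 and 419 in etoposide-treated libraries, which overlapped throughout. COL6A2 mRNA was 541 and 719 CPM in cycling, 442, 515 and 348 in irradiated, and 320, 320 and 418 in etoposide-treated libraries, and passed after etoposide (-0.84 ± 0.22, adjusted p = 0.00916), a call lost without cycling RNA-seq replicate 2 (adjusted p = 0.120). COL13A1, a transmembrane collagen of cell adhesion sites, was 9.49 and 10.3 CPM in cycling, 4.00, 6.65 and 4.23 in quiescent libraries, 2.62, 2.03 and 2.08 after irradiation, and 3.64, 4.22 and 3.91 after etoposide. It was lower in all 3 arrested states, by 0.99 ± 0.23 (adjusted p = 0.0105), 2.13 ± 0.24 (adjusted p = 1.7e-05) and 1.33 ± 0.23 (adjusted p = 0.000552).

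Few members were called between quiescence and cycling, and the quiescent values depended on single libraries. COL14A1 and COL4A6 were higher in both assays, COL9A2 was higher and COL13A1 lower in mRNA, and no member was called lower in footprints (1 at an unadjusted p under 0.05, 0 by DESeq2). The COL9A2 call (0.82 ± 0.26, adjusted p = 0.0469) held in 4 of 11 alternatives, not without either cycling library or quiescent RNA-seq replicate 1 (0.73, adjusted p = 0.114) or 3, and that of COL13A1 in 8 of 11, not without either cycling library. Without quiescent RNA-seq replicate 1, 5 members were higher and 1 lower in mRNA (12.8% of all genes either way). COL8A1 footprints, for example, were 29.8, 81.0 and 139 CPM in the quiescent libraries around 84.2, 84.8 and 91.8 in cycling. Without quiescent Ribo-seq replicate 1, 6 members were called higher and none lower (18.2% of all genes either way). Without replicate 3, 2 were higher and 6 lower (25% either way). Against quiescent cells, irradiated cells were lower for 6 members and higher for 1, COL14A1, in mRNA (9.7% and 9.01% of all genes, 18.7% either way). In footprints they were lower for 5 and higher for none (7.33% and 7.22%, 14.6% either way), with no member higher at an unadjusted p under 0.05 or by DESeq2. COL5A3, COL12A1, COL16A1 and COL6A3 were lower in both assays, with COL12A1 at -1.33 ± 0.25 (adjusted p = 0.00268) in mRNA and -1.80 ± 0.30 (adjusted p = 0.00101) in footprints. Without quiescent replicate 1 these counts became 16 lower and 1 higher in mRNA (21.2% of all genes either way) and 19 lower and none higher in footprints (20.4% either way). Against quiescent cells, etoposide-treated cells had 10 members higher and 9 lower in mRNA (21.1% and 20.6%, 41.7% either way) and 6 higher and 3 lower in footprints (19% and 16.8%, 35.8% either way). COL15A1 was lower by 1.96 ± 0.33 (adjusted p = 0.000372) in mRNA and 1.83 ± 0.41 (adjusted p = 0.00399) in footprints, and COL4A6 was higher by 1.36 ± 0.28 (adjusted p = 0.00167) in mRNA. Without quiescent Ribo-seq replicate 1, 5 members were higher and 9 lower in footprints (31.8% of all genes either way); without RNA-seq replicate 1, 9 were higher and 9 lower in mRNA (38.2%).

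Translational efficiency, the ratio of footprints to mRNA, was tested as the interaction of assay and state. No member was called in quiescence (0.00854% of all genes), after irradiation (0.0512% of all genes, 0.0427% higher and 0.00854% lower) or after etoposide (0.0683%, 0.0256% higher and 0.0427% lower), none reached an unadjusted p under 0.05, and DESeq2 called none. The footprint change after irradiation was below the mRNA change in 22 of 24 members, and the median change of the ratio was -0.28 against 0.07 for all genes. Irradiated against quiescent and against etoposide-treated cells also gave 22 of 24, with the same irradiated libraries each time. The share of all genes with that sign is not given here. Members come from the same libraries and are not independent. On simulated data for etoposide against cycling with 200 changed genes, this test found 49% of 2-fold and 96% of 4-fold changes of the ratio. Even there, ratio changes near 2-fold were often missed. Every gene had the same spread in that simulation, so it does not give the share found for collagen genes in the real data.

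Footprints of 18 of the 24 tested members were lower after 3 h of thapsigargin, and in 8 genes the footprint to mRNA ratio was lower too (for the ratio, 20.7% of all genes were called, 12.9% lower and 7.87% higher; no member was higher, at an unadjusted p under 0.05 or by DESeq2 either). The 8 were COL1A1, COL1A2, COL3A1, COL5A1, COL6A1, COL6A2, COL16A1 and COL18A1. The median change of the ratio over the 24 members was -1.65, against -0.15 for all genes, and -1.38 with the 2 members that had no footprint count set at their bound. For COL1A2, footprints went from 8660, 9891 and 10462 CPM in cycling to 639 and 713 CPM, while mRNA was 1412 and 1722 CPM against 2008 and 3624 CPM. The states were far apart in footprints and closer in mRNA, though neither overlapped, and the log2 changes were -3.84 ± 0.34 in footprints (adjusted p = 2.3e-06), -0.85 ± 0.35 in mRNA (adjusted p = 0.0973) and -3.05 ± 0.47 in the ratio (adjusted p = 0.000104). COL1A1 mRNA was 739 and 1928 CPM after thapsigargin, overlapping the cycling libraries, with a log2 difference of -0.25 ± 0.50 (adjusted p = 0.753). Its footprints fell by 2.73 ± 0.34 (adjusted p = 3.6e-05) and its ratio by 2.53 ± 0.60 (adjusted p = 0.00451), the latter lost without thapsigargin RNA-seq replicate 2 (adjusted p = 0.0561). The footprint to mRNA ratio of group means went from 7.73 to 1.39 for COL1A1 and from 3.43 to 0.431 for COL1A2.

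The ratio also fell for chains of type VI and type V collagen. COL6A2 footprints were 179 and 239 CPM after thapsigargin and its mRNA 383 and 465 CPM, with a ratio change of -2.18 ± 0.45 (adjusted p = 0.00157). COL6A1 footprints were 232 and 238 CPM and its mRNA 234 and 346 CPM (ratio -1.96 ± 0.49, adjusted p = 0.00665). COL5A1 footprints went from 178, 190 and 210 to 41.1 and 22.0 CPM with mRNA at 96.5 and 142 against 143 and 197 CPM (ratio -2.15 ± 0.51, adjusted p = 0.00445). COL18A1, whose C-terminal part is endostatin, had 80.5, 64.8 and 75.7 CPM of footprints in cycling and 6.02 and 8.40 after thapsigargin (ratio -2.48 ± 0.71, adjusted p = 0.0156). The ratio calls of COL1A2, COL5A1, COL6A1 and COL6A2 held in all 14 alternatives; COL3A1 kept its call in 9, and COL16A1 and COL18A1 in 12 each. COL6A3, the third type VI chain, fell in both assays by a more equal amount, from 1437 and 2061 to 649 and 832 CPM of mRNA and from 3642, 4344 and 4010 to 1068 and 962 CPM of footprints, and its ratio did not pass (-0.79 ± 0.43, adjusted p = 0.197).

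**Figure D4:**
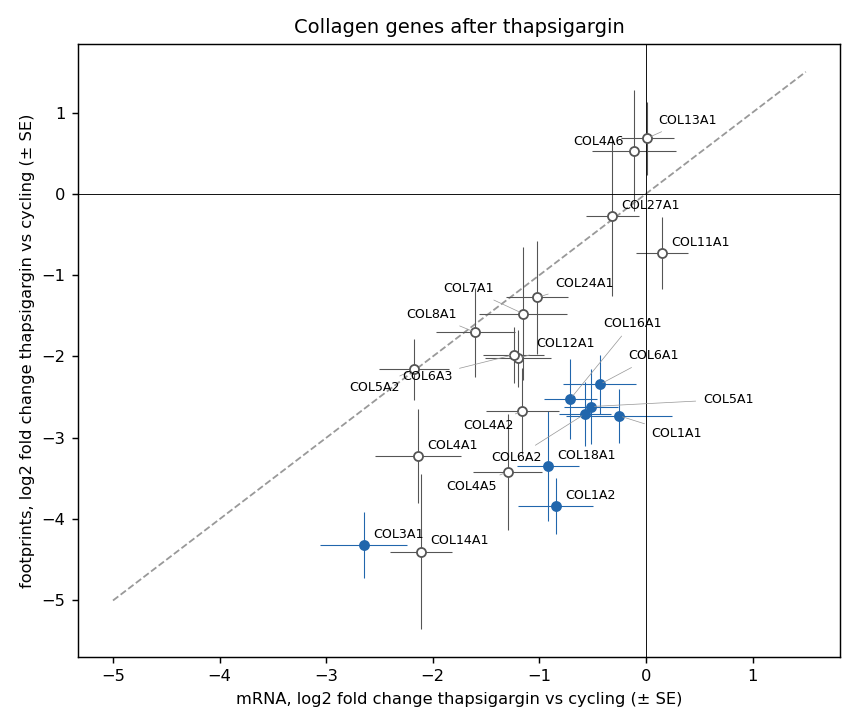
Log2 fold change of mRNA (x axis) and footprints (y axis) after thapsigargin against cycling for the 22 collagen genes tested in both assays that had a footprint count after thapsigargin; bars are SE. Blue points passed the test for the footprint to mRNA ratio and the dashed line marks equal change; COL1A1 and COL1A2 lie far below it, while COL5A2 and COL8A1 lie on it.

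In some members the mRNA itself fell, among them COL3A1 and COL18A1, which were also called for a lower footprint to mRNA ratio. For COL3A1 the ratio of group means went from 1.49 in cycling to 0.468 after thapsigargin. COL3A1 mRNA went from 1038 and 1629 CPM to 225 and 201 CPM (-2.65 ± 0.41, adjusted p = 0.000495) and its footprints to 99.1 and 100.3 CPM (-4.32 ± 0.41, adjusted p = 3.7e-06). COL5A2 mRNA fell to 120 and 100.0 CPM (-2.18 ± 0.33, adjusted p = 0.000442) and its footprints to 149 and 117 CPM (-2.16 ± 0.37, adjusted p = 0.000466), and its ratio differed by -0.04 ± 0.47. COL8A1 likewise fell in mRNA (-1.60 ± 0.37, adjusted p = 0.00737) and footprints (-1.70 ± 0.54, adjusted p = 0.0213), with a ratio difference of -0.16 ± 0.65 that did not pass. COL4A1 mRNA was 118 and 122 CPM and its footprints 55.3 and 32.5 CPM, and COL14A1 mRNA fell to 3.80 and 3.64 CPM (-2.11 ± 0.29, adjusted p = 0.000211) with 4 footprint counts over both libraries, a level 21.9 times lower than in cycling (counting interval 8.53 to 80.7).

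COL15A1 (ENSG00000204291, chr9:98943907-99070787) had the largest mRNA fall of any tested member that kept counts after thapsigargin. Its mRNA went from 33.4 and 40.8 CPM to 1.24 and 1.93 CPM (-4.52 ± 0.46, adjusted p = 2.1e-05). Footprints went from 46.6, 54.1 and 48.6 CPM in cycling to no count in either library, at least 61.9-fold lower against a floor of 3 counts over the group. COL5A3 footprints were also at no count, at least 8.25-fold lower. The 250 bases before the COL15A1 start are shown for this fall, with GGGCGG in capitals; CCAAT and TATAAA are not among them.
COL15A1 upstream, chr9:98943657-98943906, plus strand: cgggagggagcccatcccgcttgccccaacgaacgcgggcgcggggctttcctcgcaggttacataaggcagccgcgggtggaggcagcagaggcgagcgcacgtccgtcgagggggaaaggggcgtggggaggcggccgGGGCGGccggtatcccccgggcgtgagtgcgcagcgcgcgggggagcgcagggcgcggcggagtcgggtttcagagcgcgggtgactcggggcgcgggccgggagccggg
The ER stress element core (by that name), TGACGTGG of the unfolded protein response and TGATGNAAT, bound by ATF4 dimers, were searched on both strands and were in 0 of the 44 windows of members, against 0.0741%, 0.613% and 0.889% of all windows. At these frequencies among all windows, none in 44 says nothing further about the factors. COL4A6, COL13A1, COL11A1 and COL27A1 were not called in mRNA or footprints after thapsigargin; COL13A1 mRNA was 8.53 and 11.4 CPM against 9.49 and 10.3 CPM in cycling.

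Most type I collagen pairs COL1A1 chains with a COL1A2 chain, so the balance of the genes was followed across states; gene lengths differ, so only changes between states are read from it. The ratio of COL1A1 to COL1A2 footprints in CPM was 1.46, 1.16 and 1.22 in cycling, 1.03, 1.08 and 1.10 in quiescent libraries, 0.945, 0.973 and 0.974 after irradiation, 0.832, 0.806 and 0.686 after etoposide, and 2.81 and 2.68 after thapsigargin. The groups did not overlap. In mRNA the ratio was 0.459 and 0.622 in cycling, and the etoposide libraries (0.246 to 0.384) were below both, while quiescent, irradiated and thapsigargin libraries overlapped cycling. For COL4A1 over COL4A2 the mRNA ratio was 1.78 and 1.62 in cycling and 0.960 and 0.771 after thapsigargin, and the footprint ratio 1.03 ± 0.01 and 0.732 and 0.660.

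**Figure D5:**
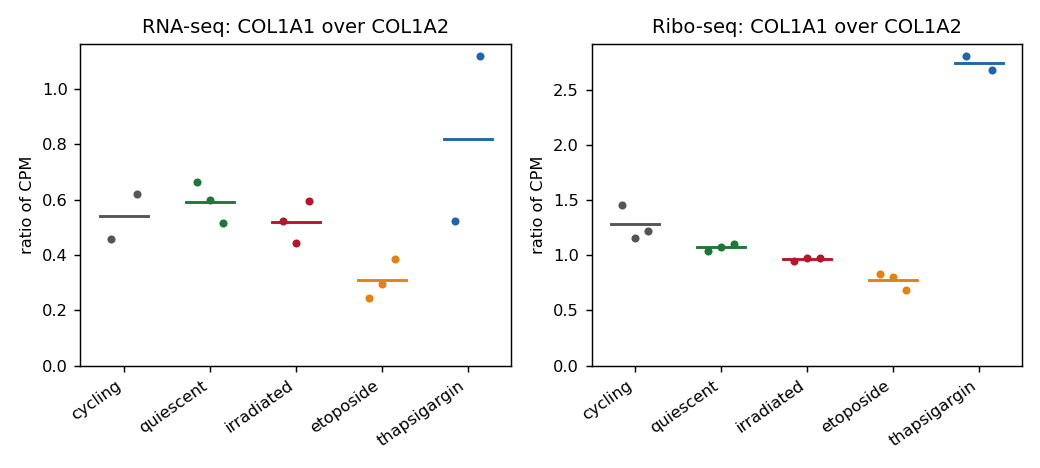
Ratio of COL1A1 to COL1A2 (CPM over CPM, y axis) by state in RNA-seq (left) and Ribo-seq (right). Points are libraries and lines group means; in footprints the ratio is 2.68 to 2.81 after thapsigargin and at most 1.46 in all other libraries.

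Genes that fold, export, trim and turn over collagen were counted from lists chosen for their function. Of 18 genes for procollagen folding and modification, 12 were lower and none higher after irradiation in mRNA, and 16 lower and none higher in footprints (18.8% and 21.6% of all genes lower). In quiescence 10 were lower and none higher in mRNA, and 11 lower and none higher in footprints (10.4% and 14.2% of all genes lower). Of these 10 mRNA calls, only those of P3H3 and COLGALT1 held in all 11 alternatives. PLOD3 and PPIB kept theirs in 6 of 11 and P4HB in 5 of 11, with adjusted p up to 0.389 for PPIB. Irradiated against quiescent cells had 5 lower and 2 higher in mRNA (9.7% and 9.01%). In footprints 3 were lower and none higher (7.33% and 7.22%). After etoposide, 3 were higher and 2 lower in each assay (16.8% higher in each, 17.8% and 17.1% lower). Irradiated cells were below etoposide-treated cells for 16 of the 18 in each assay (12.9% of all genes lower in mRNA, 13.7% in footprints), with P3H3 called in mRNA alone and COLGALT2 in footprints alone. SERPINH1, the chaperone HSP47, was 607 ± 52 CPM (n = 2) in cycling, 195 ± 15 in irradiated and 326 ± 16 in etoposide-treated mRNA (n = 3 each), with log2 changes of -1.64 ± 0.20 (adjusted p = 3.4e-05) and -0.90 ± 0.20 (adjusted p = 0.00340). The lysyl hydroxylase PLOD2 and the prolyl 3-hydroxylase P3H2 rose after etoposide in mRNA, by 1.34 ± 0.32 (adjusted p = 0.00586) and 2.09 ± 0.19 (adjusted p = 2.2e-06), and were lower in irradiated than in etoposide-treated cells, at -2.07 ± 0.29 (adjusted p = 0.000354) and -2.11 ± 0.16 (adjusted p = 1.4e-05).

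Of 13 genes for trimming and crosslinking, 12 were tested in mRNA: 7 were lower and 1 higher after irradiation (18.8% and 16.2% of all genes), and 5 lower and 2 higher after etoposide (17.8% and 16.8%). PCOLCE, which speeds removal of the procollagen C-propeptide, was 125 ± 37 CPM in cycling, 25.3 ± 4.3 in irradiated and 11.1 ± 2.2 in etoposide-treated mRNA, and changed by -2.30 ± 0.24 (adjusted p = 9.4e-06) and -3.48 ± 0.25 (adjusted p = 2.0e-07). LOX, which starts crosslinking, rose after etoposide by 0.86 ± 0.20 (adjusted p = 0.00448). Among 7 turnover genes, 6 were tested in mRNA: 2 were lower (MMP1 and MRC2) and 1 higher (CTSK) after irradiation (18.8% and 16.2% of all genes). CTSK alone was called after etoposide and in quiescence, higher in each (16.8% and 5.18%). Its call held in 5 of 11 alternatives after irradiation and in all 11 after etoposide. MMP1, the interstitial collagenase, was 76.4 ± 9.9 CPM in cycling, 13.5 ± 0.8 in irradiated and 69.3 ± 9.0 in etoposide-treated cells, a change of -2.50 ± 0.25 after irradiation (adjusted p = 5.7e-06). After thapsigargin, 9 of the 18 folding genes were lower and 2 higher in mRNA (12.8% and 11.7% of all genes) and 12 lower and none higher in footprints (23.6% and 21.1%). Of the 10 trimming and crosslinking genes tested in footprints, all 10 were lower then, beside the same 23.6%. Among 6 genes for export and mRNA control, 2 were higher and none lower in mRNA after thapsigargin (11.7% and 12.8% of all genes). These were SEC24D of the COPII coat and the collagen mRNA binding protein LARP6. The SEC24D call held in all 10 alternatives and the LARP6 call in 6 of 10. In footprints 2 of the 6 were higher and 2 lower (21.1% and 23.6%). Of 7 collagen receptor genes, 2 were lower in mRNA after irradiation, the integrin genes ITGB1 and ITGA2, and 1 was higher, the receptor kinase DDR2 (18.8% and 16.2% of all genes). In mRNA after etoposide 1 was higher, ITGA1 (16.8%), and after thapsigargin 3 were lower, ITGA11, ITGB1 and DDR2 (12.8%). These receptors were named after their values were seen.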

How the data were processed

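The deposited files are raw gene counts per strand, in the layout of STAR's gene counting; per the submitters' processing notes the tools were bcl2fastq, STAR 2.7.10b and DESeq2 1.36.0 with genome hg38. The annotation version is not given in the sources used here. The authors' counts were used as deposited, from the strand column with most gene counts (RNA-seq column 4, Ribo-seq column 3); the opposite strand would have held 3.56% to 10.7%. The files use 2 gene lists, of 62703 and 60664 IDs, and the 60534 shared IDs held 99.6% or more of the counts in each library. Symbols came from a table that matched 60461 IDs, and gene types, coordinates and promoter sequences from RefSeq (GRCh38.p14), which gave a type for 40647 IDs.

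Counts were tested with edgeR 4.0.16 (R 4.3.3) by its robust quasi-likelihood test after filterByExpr and TMM scaling, two-sided, with all 5 states in 1 fit per assay and Benjamini-Hochberg adjustment over 13293 genes in RNA-seq and 11766 in Ribo-seq. Translational efficiency was the interaction of assay and state over all 27 libraries (11715 genes). There were 18 comparisons. Levels are CPM with TMM factors and were not compared between genes, because lengths were not used here. Chi-square per degree of freedom between replicates was at least 1.82, so no library was a copy of another. On simulated etoposide and cycling libraries with 200 changed genes, the tests recovered 73% of 2-fold and 98% of 4-fold changes in RNA-seq (13293 genes) and 81% and 99% in Ribo-seq (11766 genes). The simulations gave every gene the same spread, so recovery for single genes in the real data may differ. Counting intervals are exact at 95% and, like the floor of 3 counts, cover counting error only.

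Alternatives were DESeq2 1.42.0, RLE scaling, no low-count filter, both strands, only the groups compared, the replicate number as a block, and leaving out each library. Library values are given for COL1A1, COL1A2, COL3A1, COL4A1, COL4A2 and the COL6A1, COL6A2 and COL6A3 chains, for the 3 largest called members of each comparison with a group mean of at least 1 CPM, and for up to 5 members called for translational efficiency; further members were chosen after their values were seen. The members and lists were chosen with earlier results of these data known.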

Additional observations from a re-analysis of the deposited data

Results flagged for a closer look

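The effects of irradiation and etoposide differed by the direct test for 8 collagen genes in both assays, and all were lower in irradiated cells. Of all genes, 12.9% were called lower in mRNA and 13.7% in footprints. The share called in both assays is not given here. The values are log2 differences, irradiated minus etoposide. COL4A1 differed by -1.64 in mRNA and -1.87 in footprints, and COL4A2 by -1.24 and -1.68. COL4A5 differed by -1.32 and -1.92, and COL4A6 by -1.53 and -1.59. COL8A1 differed by -1.66 and -1.81, and COL5A2 by -1.51 and -1.72. COL11A1 differed by -0.75 and -1.21, and COL12A1 by -0.79 and -1.44.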

How the results depend on the processing

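Of 162 calls of collagen genes over 18 comparisons, 90 held in all of their 9 to 14 alternatives and 0 changed sign. With only the groups compared in the fit, the number called became 1 for quiescent and 20 for irradiated against cycling in mRNA. In footprints it became 18 for etoposide against cycling, 3 for irradiated and 2 for etoposide against quiescent, and 20 for irradiated against etoposide. For the translational efficiency of irradiated against cycling it became 2. Shares of all genes called in these runs are not given here, so these counts do not single out collagens. The replicate numbers did not pair the libraries by the rule used, a correlation of deviations over 0.1 in every pair. Between states the median correlation was 0.029 in RNA-seq and 0.023 in Ribo-seq. Between assays within a state it was 0.093 for same-numbered libraries (6 of 13 pairs over 0.1, all 3 etoposide pairs among them) and -0.051 for others (2 of 24 over 0.1), a hint of shared material that did not hold for the irradiated or thapsigargin pairs. With the replicate block, which joins same-numbered RNA-seq and Ribo-seq of a state, 16 members were called for translational efficiency after thapsigargin instead of 8 (17.6% of all genes instead of 20.7%).

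Leaving out 1 library, the members called in mRNA ranged from 1 to 6 for quiescent, 7 to 11 for irradiated, 8 to 15 for etoposide and 6 to 12 for thapsigargin against cycling, from 6 to 17 for irradiated and 14 to 19 for etoposide against quiescent, and from 8 to 10 for irradiated against etoposide. In footprints, in the same order, they ranged from 2 to 8, 10 to 13, 5 to 6, 17 to 21, 3 to 19, 6 to 14 and 5 to 9, and for translational efficiency after thapsigargin from 5 to 8. The lowest of the last followed from leaving out cycling RNA-seq replicate 1 or thapsigargin Ribo-seq replicate 1. The cause was not tested. Shares of all genes called also moved when a library was left out, as given above for some runs. They are not repeated for these ranges, which therefore do not single out collagens.

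Leaving out libraries turned the sign of 6 mRNA changes that had not passed: COL6A1 ranged from -0.60 to 0.10 after irradiation, -0.680 to 0.0168 after etoposide and -0.11 to 0.38 between them, COL1A2 from -0.75 to 0.10 after etoposide, COL1A1 from -1.08 to 0.53 after thapsigargin, and COL6A3 from -0.181 to 0.0130 between irradiated and etoposide. Depth was lowest in the thapsigargin footprints, where counting error is widest for low members.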
